A study of Mus musculus with 3 samples.

Results

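CELF1 binding sites were compared between adult mouse heart and adult mouse muscle within the 4573 genes that had at least 1 CLIP cluster in both tissues, out of 7625 genes with a cluster in either. These genes were chosen from the cluster lists themselves, so the fact that they were bound in both tissues is no result. They made up 66.7% of the 6857 genes with a cluster in heart and 85.6% of the 5341 genes with a cluster in muscle, and they held 35794 of the 42263 heart clusters (84.7%) and 23418 of the 24844 muscle clusters (94.3%). Just inside the choice were 351 genes with 1 cluster in each tissue. Just outside it were 1105 genes with 1 cluster in heart and 0 in muscle, and 530 genes with 1 in muscle and 0 in heart. Of the genes left out, 2284 were bound in heart alone, with a median of 2 clusters and at most 252, and 768 in muscle alone, with a median of 1 and at most 50.

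Heart ventricle and muscle came from C57/BL6 mice aged 16 weeks, carried no named transgene or treatment, and gave 1 library each. The muscle is not named more precisely in the sources used here, and neither is the number of animals. In CLIP-seq, UV light at 254 nm fixes a protein to the RNA it touches, the protein is pulled down, here with antibody 3B1 against endogenous CELF1, and the attached RNA is sequenced. A cluster is a stretch of RNA that held more reads than a Poisson model allowed, given how long and how strongly expressed the gene is. Clusters were 35 to 126 nt wide and carry no read numbers. The depth behind a cluster is therefore unknown, and no difference between the tissues has a replicate check. Intervals given with shares are exact Clopper-Pearson 95% intervals, which cover counting error only, and clusters of 1 gene are not independent of each other.

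CELF1, also called CUGBP1, is an RNA-binding protein with a preference for UGU-containing and GU-rich RNA. In the nucleus it changes which alternative exons are kept, often in the opposite direction to MBNL proteins, and in the cytoplasm it binds 3' UTRs and promotes shortening of the poly(A) tail and decay of the message. Its level in heart and skeletal muscle falls after birth and is raised in myotonic dystrophy, a disease of both tissues.

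The sequences below are the central 30 nt of the widest stretch covered in both tissues, shown for genes described below from introns and 3' UTRs, since they show the motif at positions bound in both tissues. They run 5′ to 3′ on the transcript strand of mm9 (NCBIM37), with UGU in capitals. Ttn lies at chr2:76674940-76674969 (minus strand, intron), Rora at chr9:68528733-68528762 (plus strand, intron), Zbtb16 at chr9:48588521-48588550 (minus strand, intron) and Cacna1c at chr6:118951366-118951395 (minus strand, intron). Kif1b lies at chr4:148550508-148550537 (minus strand), Mbnl2 at chr14:120829943-120829972 (plus strand), Celf1 at chr2:90857075-90857104 (plus strand), Canx at chr11:50108365-50108394 (minus strand) and Cnih4 at chr1:183096580-183096609 (plus strand), all 5 in 3' UTRs.
Ttn: cugggugaugaacaUGUacaaUGUGUcaua
Rora: uaucUGUcuuUGUcUGUcucUGUcUGUcug
Zbtb16: uUGUcucUGUaUGUGUggucucUGUGUGUg
Cacna1c: UGUuugcaucUGUGUcUGUGUGUgagucug
Kif1b: uagcccuagaUGUGUaaugcagacauuauc
Mbnl2: cgUGUuUGUuuuuaauuUGUggaaagguau
Celf1: agcccuacuagcacaugccgUGUggUGUuu
Canx: uUGUuuuuuUGUuuUGUuuuucaUGUggaa
Cnih4: uggcUGUuugguagaaguaggaaUGUGUgc
Overlapping UGUs were counted separately. The whole common stretch held 36 UGUs in 119 nt in Zbtb16, 21 in 65 nt in Cacna1c, 14 in 118 nt in Rora, 9 in 124 nt in Ttn, 7 in 113 nt in Kif1b and 8 in 113 nt in Celf1. A central window can miss the motif: the corresponding windows of Dmd and Celf2 held 0 UGUs, while their whole stretches held 9 in 100 nt and 5 in 109 nt. Over the common stretches of at least 30 nt, 93.8% of the central windows (93.4% to 94.2%, n = 12593) held UGU, against 92.3% (92.0% to 92.7%) at the centres of heart clusters with no muscle counterpart and 92.6% (92.1% to 93.1%) at those of muscle clusters with no heart counterpart. Windows of 30 nt set end to end held UGU in 49.9% of cases in the annotated 3' UTRs of the same genes and in 47.0% over the whole genes.

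The next sequences are the central 30 nt of the widest cluster without a counterpart in the other tissue, for 2 genes in which the tissues differed in position, chosen after the values were seen. In Kcnd2 they lie at chr6:21246425-21246454 for heart and chr6:21186149-21186178 for muscle (plus strand) and in Parp8 at chr13:117755918-117755947 for heart and chr13:117667466-117667495 for muscle (minus strand). All 4 are intronic.
Kcnd2 heart: uugcauggaUGUcUGUGUuaccuagagaua
Kcnd2 muscle: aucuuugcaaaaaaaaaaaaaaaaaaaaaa
Parp8 heart: gcuccucuggucuuUGUccguccUGUgcuu
Parp8 muscle: uuugguacaguuucacuuccaugaagugga
The heart cluster shown for Kcnd2 held 17 UGUs in 126 nt. The muscle cluster, the single one in that gene, held 0 in 37 nt, and its window ends in a run of adenines. The Parp8 muscle cluster held 9 UGUs in 93 nt, all outside the window shown.

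The number of clusters per gene was related between the tissues. The median gene had 5 clusters in heart and 3 in muscle, the means were 7.83 and 5.12, and the highest numbers were 223 and 177. Heart had more clusters in 2772 genes, muscle in 979, and 822 genes had equal numbers. These counts were not scaled for the larger number of clusters in heart or for library depth. Across the 4573 genes, Pearson's r of the log2 numbers was 0.644 and Spearman's rho was 0.632. Genes are not independent replicates, and both counts of a gene share its length, its sequence and its annotation. Clusters in 3' UTRs gave a rho of 0.644 over 3514 genes and intronic clusters gave 0.569 over 3386 genes.

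**Figure D1:**
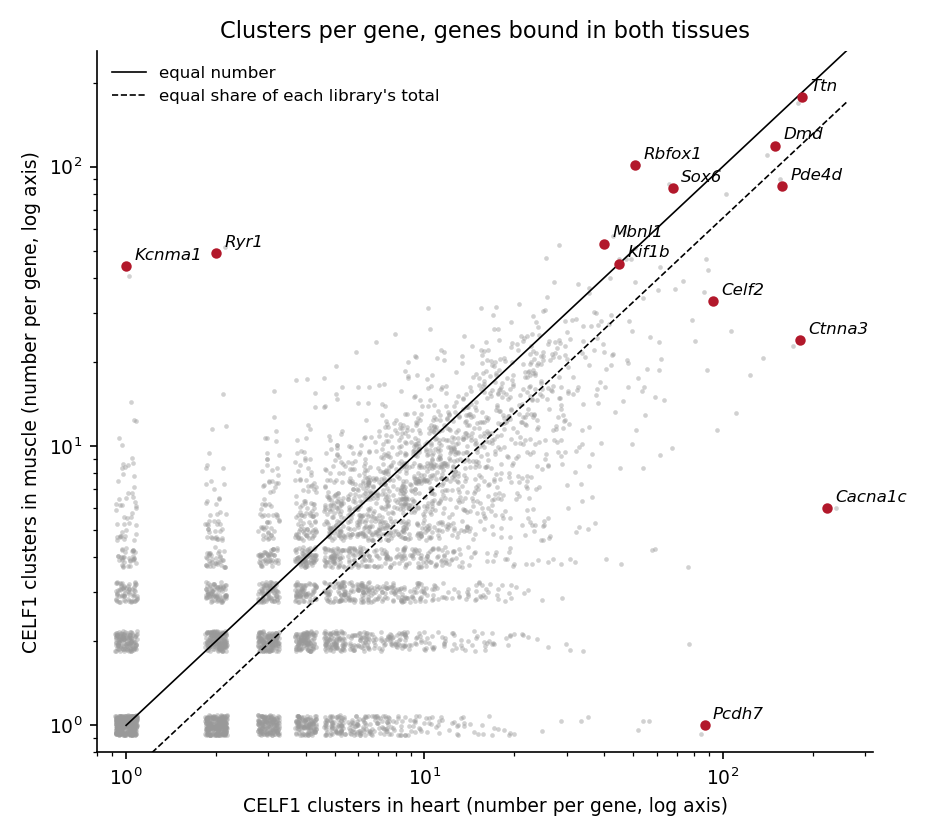
Each point is a gene bound in both tissues, with its clusters in heart on the x axis and in muscle on the y axis (log axes, points spread slightly so that equal values can be seen). The solid line marks equal numbers and the dashed line equal shares of each library's total. Ttn (184 and 177) and Dmd (150 and 119) lie near the upper right corner, Cacna1c (223 and 6) and Pcdh7 (87 and 1) far toward heart, and Kcnma1 (1 and 44) and Ryr1 (2 and 49) far toward muscle.

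The gene with the most clusters was Ttn, which encodes the giant sarcomere protein titin (Entrez 22138, chromosome 2 from 76542037 to 76820604, minus strand). It had 184 clusters in heart and 177 in muscle, and 125 of the first and 124 of the second shared a position with the other tissue. Its clusters covered 14311 nt in heart and 13492 nt in muscle, of which 8910 nt were common, more than in any other gene. Coding exons of Ttn held 69 clusters in heart and 79 in muscle, and introns held 107 and 90. Next came Dmd, for dystrophin, with 150 and 119 clusters, 72 and 76 of them common. Almost all lay in introns, 141 in heart and 114 in muscle. Rora, for a nuclear receptor, had 104 clusters in heart and 76 in muscle, every one in an intron, with 50 and 49 common.

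Other genes rich in clusters in both tissues encode regulators of RNA and transcription. Zbtb16, for the zinc finger protein PLZF, had 92 clusters in heart and 50 in muscle, and 44 of the 50 were common. Its common positions made up 85.3% of the muscle covered length. Sox6, for a transcription factor that acts on muscle fiber type, had 68 and 84 clusters, with 60 and 61 in introns and 8 and 22 in the 3' UTR. Kif1b, for a kinesin motor, had 45 clusters in each tissue, 33 and 36 of them in its 3' UTR, with 32 and 31 common. Tnrc6b, whose product acts with Argonaute in microRNA silencing, also had 45 in each, with 29 and 32 common.

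CELF1 clusters were present on the messages of the CELF and MBNL proteins themselves in both tissues. Celf1 had 21 clusters in heart and 22 in muscle, 11 and 12 in the 3' UTR and 9 and 10 in introns, and 72.2% of the smaller covered length was common. Mbnl1 had 40 and 53, with 11 in the heart 3' UTR, all 11 common, against 21 in the muscle 3' UTR, 13 of them common. Mbnl2 had 37 and 30, with 23 and 22 common. Celf2 differed by part of the gene: its 3' UTR held 25 clusters in heart and 20 in muscle, with 17 of each common, whereas its introns held 68 in heart and 13 in muscle, with 10 of each common. Mbnl3 was not bound in both tissues.

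Positions, rather than genes, were then compared. Of the 35794 heart clusters, 13065 (36.5%, 36.0% to 37.0%) shared 1 bp or more, same strand, with a muscle cluster, and of the 23418 muscle clusters 13115 (56.0%, 55.4% to 56.6%) did so with a heart cluster. Clusters covered 2212315 nt in heart and 1411129 nt in muscle, and 728969 nt were common, which is 33.0% of the first and 51.7% of the second. That left 1483346 nt covered in heart alone and 682160 nt in muscle alone. Where a cluster of one tissue was the best match of a cluster of the other and the reverse (12593 pairs), the midpoints lay a median of 8.5 nt apart, and 56.8% of pairs lay within 10 nt. The median widths in these pairs were 67 nt in heart and 60 nt in muscle, and the median overlap was 51 nt. Unshared clusters were narrower, with medians of 52 nt in heart and 49 nt in muscle. A wider cluster meets an overlap of 1 bp more easily by its width alone, and this was not adjusted for.

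An unshared heart cluster lay a median of 4173 nt from the nearest muscle cluster of its gene, and an unshared muscle cluster 874 nt from the nearest heart cluster. In 3' UTRs the medians were 219 and 191 nt, in introns 7606 and 2979 nt. Clusters were denser in 3' UTRs, which held 331142 end-to-end windows of 30 nt against 12056149 over the whole genes. Distances were not adjusted for this density or for the length of the part. Near misses were a minority: 7.69% of unshared heart clusters and 12.9% of unshared muscle clusters lay within 50 nt of the other tissue's clusters.

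At least 1 common position was found in 3669 genes (80.2%) and none in 904 (19.8%, 18.6% to 21.0%). The genes without one had few clusters, with a median of 4 in sum against 10 in the others, and among the 351 genes with 1 cluster in each tissue 113 (32.2%, 27.3% to 37.4%) had a common position. Of 1412 genes with at least 5 clusters in each tissue, 7 had no common position (0.496%). Among them were Parp8 (11 and 8 clusters), which encodes a member of the PARP family, Herc2 (10 and 8), for a ubiquitin ligase, Macrod2 (10 and 6), Sec63 (7 and 5), for a component of protein translocation into the endoplasmic reticulum, Eprs (6 and 5), for a tRNA synthetase, and Ubac2 (5 and 5), the last 2 named after the values were seen. Their closest approach differed widely, from 16 nt in Eprs and 28 nt in Herc2 to 370 nt in Parp8, 2026 nt in Ubac2 and 4623 nt in Macrod2.

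At the other end, every cluster of both tissues was common in 194 genes, 74 of which had at least 2 clusters in each tissue. In the 1412 genes with at least 5 in each, a median of 60.2% of the smaller covered length was common, with 5th and 95th percentiles of 24.8% and 89.4%. The highest shares were those of Tlcd4 (100%), Atp6v1b2, for a subunit of the vacuolar proton pump (99.7%), and Lpl, for lipoprotein lipase (99.5%). Rtn4, for Nogo (98.8%), and Canx, for the chaperone calnexin (98.8%), followed. In Tlcd4 the 5 heart clusters lay wholly within muscle clusters, while 14 of its 19 muscle clusters were unshared. In Canx all 12 muscle clusters and 12 of 13 heart clusters lay in the 3' UTR, and 11 heart and 12 muscle clusters were common. In Lpl each of the 8 muscle clusters was in the 3' UTR and common, while heart had 17 clusters, 12 of them there. Myadm, a myeloid differentiation marker gene, had 9 clusters in heart and 7 in muscle, with 6 of each common. Cnih4, whose product acts in export of receptors from the endoplasmic reticulum, had 5 and 6, all in its 3' UTR and with 5 of each common.

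Common and unshared clusters differed in the part of the gene they lay in. Clusters that lie more densely overlap more often by position alone, and the shares below were not adjusted for density. In these genes the 3' UTR held 12248 heart clusters (34.2%) and 11786 muscle clusters (50.3%), introns held 20271 (56.6%) and 9933 (42.4%), and coding exons held 5.30% and 4.32%. Among clusters with a counterpart, the tissues were nearly alike, with 57.5% of heart and 57.8% of muscle clusters in 3' UTRs and 35.2% and 35.0% in introns. Among those without, 20.8% of heart and 40.8% of muscle clusters were in 3' UTRs and 69.0% and 51.9% in introns. Seen from the gene part, 61.4% of heart and 64.3% of muscle clusters in 3' UTRs had a counterpart, against 22.7% and 46.1% in introns and 29.9% and 55.3% in coding exons. Introns within 300 nt of an exon gave 27.0% and 46.4%, and positions farther from exons 22.1% and 46.1%.

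**Figure D2:**
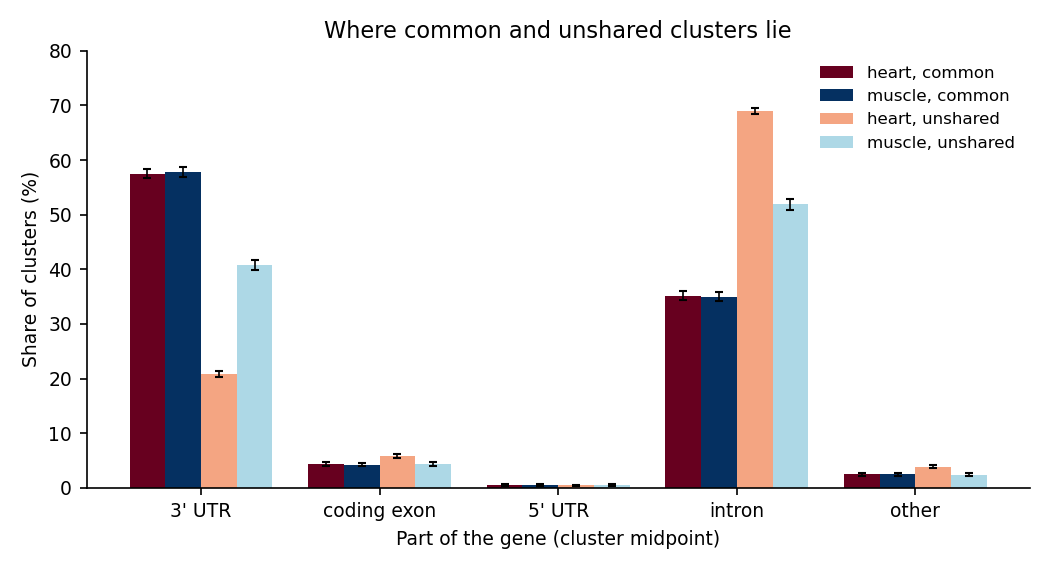
Bars give the share of clusters, in percent, whose midpoint lay in each part of the gene, for heart and muscle clusters that share a position with the other tissue (common) and that do not (unshared), and lines give exact 95% intervals. Common clusters of the tissues reached 57.5% and 57.8% in 3' UTRs, while unshared heart clusters reached 69.0% in introns.

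The difference in numbers between the tissues was mainly intronic. Heart had 12376 more clusters than muscle in these genes, and introns accounted for 10338 of them (83.5%), coding exons for 885 (7.15%) and 3' UTRs for 462 (3.73%). Per muscle cluster there were 1.04 heart clusters in 3' UTRs, 1.87 in coding exons and 2.04 in introns. Without the 50 genes with the most clusters the ratios in 3' UTRs and introns were 1.03 and 1.99. In the 1186 genes with both kinds of cluster in both tissues they were 1.02 and 1.90, so the contrast was also present within genes bound in both parts in both tissues. Gene by gene, 3' UTR clusters were more numerous in heart in 1477 genes and in muscle in 1262, and intronic clusters in heart in 2330 and in muscle in 574. A gene bound in its 3' UTR in both tissues had intronic clusters in heart alone in 513 cases and in muscle alone in 148. The study's text gives more uniquely mapped reads for heart than for muscle. The part of sequencing depth and of the share of unspliced RNA in these numbers was not tested, and cannot be told apart from tissue with 1 library each.

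The intronic excess was larger in long genes. In genes under 10 kb there were 1.52 intronic heart clusters per intronic muscle cluster, then 1.57, 1.86 and 2.01 in genes of 10 to 30, 30 to 100 and 100 to 300 kb, and 2.72 in the 189 genes of 300 kb or more. The ratio in 3' UTRs lay between 1.00 and 1.12 in all 5 length classes. In the longest class the intronic ratio was 3.05 without the 50 genes with the most clusters. Heart clusters with a muscle counterpart made up 53.6% in the shortest and 22.4% in the longest class, and muscle clusters with a heart counterpart 64.2% and 53.4%.

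**Figure D3:**
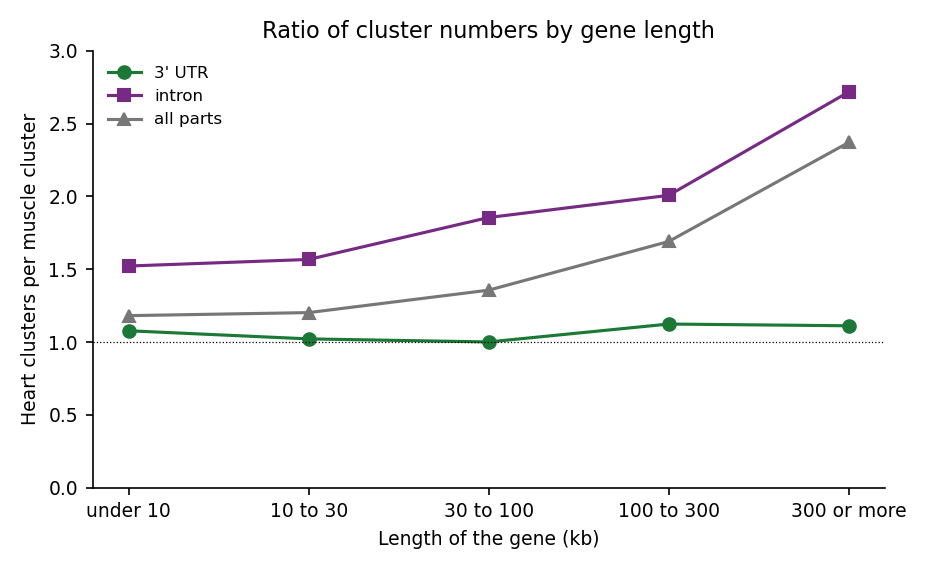
The y axis gives heart clusters per muscle cluster and the x axis the length class of the gene in kb, for 3' UTR clusters, intronic clusters and all clusters. The 3' UTR line stays between 1.00 and 1.12, and the intron line goes from 1.52 in the shortest to 2.72 in the longest genes. A dotted line marks equal numbers.

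Some genes had many more intronic clusters in heart, with or without an excess in other parts. Qk, for the RNA-binding protein quaking, had 36 3' UTR clusters in heart and 33 in muscle but 29 and 4 in introns. Camk2d, for the delta form of calcium/calmodulin-dependent kinase, had 17 and 10 in the 3' UTR and 38 and 4 in introns. Atp2a2, for the calcium pump SERCA2, had 12 and 6 in the 3' UTR, 21 and 5 in coding exons and 26 and 4 in introns, and each of its 15 muscle clusters had a heart counterpart. Slc8a1, for the sodium-calcium exchanger NCX1, had 71 and 8 in introns and a further 32 and 6 outside the annotated parts. Its annotated 3' UTR is 9 nt long, so 3' UTR clusters cannot be told from other ones there. Genes with a higher 3' UTR share in muscle included Arid1a, for a chromatin remodeling subunit (4 of 12 clusters in heart, 6 of 6 in muscle), and Rsbn1 (0 of 7 and 4 of 6). The opposite was seen in Csnk1d, for casein kinase 1 delta (7 of 7 in heart, 7 of 12 in muscle), and Plekhm3 (6 of 6 and 3 of 6).

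To compare the weight of a gene in the 2 libraries, its heart to muscle ratio was divided by 1.53, the ratio of all clusters in these genes. That ratio was 1.04 for 3' UTR clusters and 2.04 for intronic ones, so the scaling moves genes bound mainly in 3' UTRs toward muscle. A gene with equal numbers, such as Kif1b (45 and 45), gets a scaled ratio of 0.654. Among 2022 genes with at least 10 clusters in sum, the scaled ratio had a median of 0.945 and 5th and 95th percentiles of 0.331 and 4.91. It was at least 2 in 351 genes (17.4%) and at most 0.5 in 265 (13.1%). Which tissue had more such genes depended on the settings: the numbers for heart and muscle were 697 and 101 without scaling, 657 and 754 with no minimum number of clusters, and 65 and 75 with 3' UTR clusters only. These values chose the genes named next and carry no test.

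The most heart-sided genes included genes of adhesion proteins and channels. Pcdh7, for a protocadherin, had 87 clusters in heart and 1 in muscle, a scaled ratio of 56.9. Kcnd2, for the potassium channel Kv4.2 that carries transient outward current, had 57 and 1, and its muscle cluster lay 2421 nt from the nearest heart cluster. Cacnb2, for a calcium channel beta subunit, had 55 and 1, only 2 nt apart. Arhgap26 (83 and 2), Ralgapa2 (48 and 1), Trabd2b (38 and 1) and Pde3a (32 and 1), for a cyclic nucleotide phosphodiesterase, followed. Cacna1c, for the pore of the L-type calcium channel of heart, had the most heart clusters of the genes bound in both tissues, 223, of which 214 were intronic. All 6 of its muscle clusters were intronic and lay on heart clusters, and covered 333 nt against 15046 nt in heart. Ctnna3, for an alpha-catenin of the intercalated disc, had 181 and 24, with 18 of the 24 common.

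The most muscle-sided genes included components of skeletal muscle contraction. Kcnma1, for a calcium-activated potassium channel, had 1 cluster in heart and 44 in muscle (scaled ratio 0.0149), with the heart cluster on a muscle cluster. Ryr1, for the ryanodine receptor through which skeletal muscle releases calcium, had 2 and 49, and both heart clusters were common. Myh4, for the fast IIb myosin heavy chain, had 1 and 12, and Tnnt3, for fast skeletal troponin T, had 1 and 10, each with its heart cluster on a muscle cluster. Esr1, for an estrogen receptor, had 1 and 14, Dnajc27 1 and 10, Dapk2, for a kinase, 1 and 13, and Tgfb2, for a growth factor, 1 and 9. Dapk2 and Tgfb2 had no common position. Rbfox1, whose product regulates splicing, had 51 and 101 clusters, with 30 and 81 in introns and 7 and 20 in the 3' UTR, and each of the 7 heart clusters in the 3' UTR was common.

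Markers of the tissues were checked against the labels. Of 15 heart muscle markers, 12 had clusters in heart (465 in sum) and 4 in muscle (6 in sum), and Ryr2, Myh6, Corin, Mybpc3, Gja1, Myl2 and Tnni3 had 252, 21, 52, 13, 9, 7 and 1 clusters in heart and 0 in muscle. Myl7, Nppa and Nppb had 0 in both. Of 16 skeletal muscle markers, 14 had clusters in muscle (142 in sum) and 9 in heart (28 in sum), and Mybpc2, Cacna1s, Actn3, Myh1, Myh2 and Mylk2 had 13, 6, 4, 3, 3 and 3 in muscle and 0 in heart. Tnni2 had 0 in both, and Myh7b went against its list, with 4 in heart and 0 in muscle. A cluster requires that the gene be expressed. In whole tissue, fewer cells of a type and less RNA per cell cannot be told apart, and the part that expression plays in the numbers per gene was not tested.

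Markers of other cell types were looked at in the same way. Of 11 endothelial markers, 10 had clusters in heart (80 in sum) and 5 in muscle (23 in sum). Erg, an endothelial transcription factor gene, had 20 and 2, with no common position, Ptprb, for a receptor phosphatase, 15 and 2, Flt1, for a VEGF receptor, 21 and 13, and Pecam1, for an adhesion molecule, 8 and 5. After scaling, the ratios of Erg and Ptprb were 6.54 and 4.91, while those of Flt1 and Pecam1 were 1.06 and 1.05. The smooth muscle and pericyte markers bound in both tissues were 5 of 8, with 29 and 13 clusters. Notch3 had 12 and 2, Myh11 5 and 1, Acta2 4 and 2, Rgs5 7 and 7, and Cspg4 1 and 1. Bound in both were also 2 of 9 fibroblast markers (4 and 4 clusters), 1 of 7 macrophage markers (5 and 2) and 1 of 6 nerve and Schwann cell markers (2 and 1). Adipocyte and erythroid markers had no gene bound in both.

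Gene groups were described by the number of members past the scaled ratio above, called leaning to heart (at least 2) or to muscle (at most 0.5), to be read against 17.4% for heart and 13.1% for muscle over all 2022 genes with at least 10 clusters in sum. The median scaled ratio over all 4573 genes was 0.92. Lists rich in 3' UTR clusters are moved toward muscle by the scaling. In 3' UTRs lay 80.3% of heart and 77.6% of muscle clusters of the immediate early list. For vesicle transport these shares were 54.3% and 66.9%, against 34.2% and 50.3% over all genes. The members of these lists were chosen with earlier results of the data known, and their values describe these libraries.

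Calcium handling and channel genes spread widest. Of 32 bound in both tissues, 24 had at least 10 clusters in sum, of which 8 leaned to heart and 7 to muscle, while the median ratio was 0.78. Toward heart were Cacna1c, Cacnb2, Slc8a1 (111 and 14), Camta1 (70 and 10), Atp2a2 (59 and 15), Camk2d (55 and 14), Itpr2 (23 and 3), for an IP3 receptor, and Casq2 (18 and 1), for cardiac calsequestrin. Toward muscle were Kcnma1, Camk2a (12 and 24), Camk2b (4 and 8), Jph1 (6 and 23), for junctophilin of the triad, Stim1 (5 and 19), for the store-operated calcium sensor, and Scn4b (4 and 9), among others. Cacna2d1, for an auxiliary subunit of calcium channels, lay between, with 54 and 48 clusters and 31 and 32 common. For the group, 21.2% of 865 heart clusters and 48.0% of 375 muscle clusters were common, against 36.5% and 56.0% over all genes. That heart share was the lowest among the 12 functional lists. A list with many more heart than muscle clusters has a low heart share by construction, and Cacna1c alone held 217 unshared heart clusters.

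The dystrophin complex and costamere list holds the membrane complex that ties the sarcomere to the matrix. Of its 17 genes with at least 10 clusters, 5 passed toward heart and 0 toward muscle, to be set beside 17.4% and 13.1% of all genes, and the median ratio over the 21 bound in both was 1.31. The 5 were Utrn, for utrophin (38 and 9), Sptbn1, for beta-spectrin (35 and 11), Sgcd, for delta-sarcoglycan (25 and 6), Ank2 (14 and 4), for an ankyrin, and Sspn, for sarcospan (11 and 1). Dmd and Ank3, with 50 and 60 clusters, did not pass, and 38.8% of 513 heart and 60.7% of 338 muscle clusters were common. In the sarcomere and Z-disc list, 28 genes were bound in both, 2 of 16 leaned to heart, Actn2 (25 and 4) and Actn1 (9 and 2), both for alpha-actinins, and 3 to muscle, Pdlim3 (5 and 10), Myot, for myotilin (4 and 9), and Fhl1 (5 and 8). Their median ratio was 0.87, and 51.8% of 550 heart and 67.1% of 423 muscle clusters were common. Pdlim5 had 61 and 43, Myom1, for myomesin, 32 and 27, and Ldb3, for ZASP, 29 and 19.

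Regulators of RNA were split by function. Of 37 splicing regulators bound in both tissues, 19 had at least 10 clusters, of which 1 leaned to heart, U2af2 (8 and 2), for a 3' splice site factor, and 5 to muscle: Rbfox1, Mbnl1, Hnrnpd (11 and 15), Hnrnpc (5 and 8) and Elavl1 (6 and 8). Mbnl1, Elavl1 and Hnrnpd lay close to the limit, at scaled ratios of 0.494, 0.491 and 0.480. Of 522 heart clusters 51.1% and of 455 muscle clusters 59.1% were common, against 36.5% and 56.0% over all genes, and the median ratio was 0.81. Of 32 genes of mRNA decay and translation, 0 of 19 leaned to heart and 2 to muscle, Eif4g3, for a translation initiation factor (24 and 46), and Tob2, for a deadenylation adaptor (6 and 8). Tob2 had the same numbers as Elavl1 and so also lay close to the limit, at 0.491. Msi2, for a musashi protein, had 69 and 42 clusters and Cpeb3, for a polyadenylation element binding protein, 46 and 24. In this list 48.7% of 417 heart and 64.5% of 321 muscle clusters were common, with a median ratio of 0.90.

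**Figure D4:**
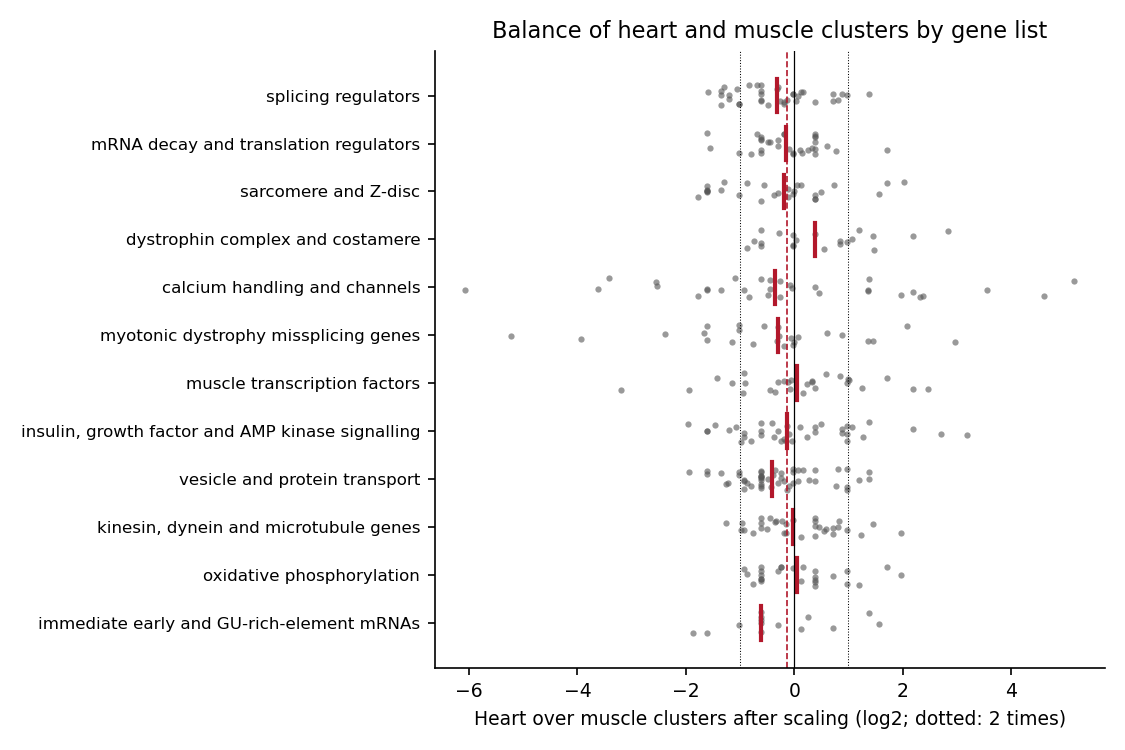
Each dot is a gene of a list that was bound in both tissues, at the log2 of its heart to muscle cluster ratio after scaling, and spread vertically to show equal values. Red bars are list medians, the dashed red line is the median of all 4573 genes (a ratio of 0.92), and dotted lines mark 2 times in either direction. Dots of calcium handling and channel genes spread farthest to both sides, from Kcnma1 to Cacnb2.

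The list of genes misspliced in myotonic dystrophy had 25 members among the genes compared. Of 24 with at least 10 clusters, 4 leaned to heart and 8 to muscle, with a median ratio of 0.82, and 45.7% of 877 heart and 58.5% of 689 muscle clusters were common. Toward heart were, among others, Clasp1, for a microtubule-binding protein (63 and 15), Camk2d and Tnnt2, for cardiac troponin T (12 and 1). Toward muscle were Ryr1, Tnnt3, Mbnl1, Bin1, for amphiphysin of the T-tubule (5 and 17), Phka1, for a phosphorylase kinase subunit (16 and 33), Mef2c (11 and 16), Atp2a1, for the calcium pump SERCA1 (9 and 18), and Clcn1, for the chloride channel of skeletal muscle (4 and 8). In Atp2a1 every one of the 9 heart clusters lay on a muscle cluster, and in Clcn1 3 of the 4 did. All 4 heart clusters of Clcn1 were intronic, while 2 of its 8 muscle clusters lay in the 3' UTR, neither of them common. Several of these genes also stand on other lists.

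Transcription factors, signaling and transport genes came next. Muscle transcription factors (28 bound in both, 694 and 454 clusters, 39.1% and 60.1% common) had 4 of 23 toward heart and 2 toward muscle and a median of 1.04. Ppara (25 and 5), Ppargc1b (29 and 8), Foxo3 (17 and 2) and Tcf7l2 (31 and 10) leaned to heart, and Mef2c and Six4 (4 and 7) to muscle. The list of insulin, growth factor and AMP kinase signaling (38 genes, 460 and 352 clusters, 41.5% and 55.1% common) had 4 of 26 toward heart and 5 toward muscle and a median of 0.91. Toward muscle it held Prkaa2, for an alpha subunit of AMP-activated kinase (24 and 33, with 21 and 30 in the 3' UTR), Prkab2 (5 and 9), Irs1, for the insulin receptor substrate (10 and 20), Tbc1d1 (11 and 28), for a regulator of glucose transporter traffic, and Fgfr1 (8 and 12). Toward heart it held Grb14 (14 and 1), Prkag2 (10 and 1) and Grb10 (16 and 5), among others. Prkaa2 was bound mainly in its 3' UTR, and the scaling moves such genes toward muscle.

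Vesicle and protein transport (50 genes, 311 and 263 clusters, 49.5% and 59.7% common) had 1 of 27 toward heart, Ap3b1 (8 and 2), and 4 toward muscle, Picalm, for a clathrin adaptor (15 and 23), Sec24a (7 and 11), Sec23a (4 and 8) and Rab1a (6 and 8), with a median of 0.76. Rab1a had the same numbers as Elavl1 and also lay close to the limit. Kinesin, dynein and microtubule genes (33 genes, 483 and 333 clusters, 44.7% and 64.6% common) had 2 of 24 toward heart, Clasp1 and Mapre2 (18 and 5), and 1 toward muscle, the adaptor gene Hook3 (21 and 33), with a median of 0.98. Oxidative phosphorylation genes (26 genes, 124 and 83 clusters, 53.2% and 78.3% common) had 0 of 6 past the limit in either direction and a median of 1.04. Immediate early and GU-rich-element messages (14 genes, 71 and 49 clusters, 46.5% and 71.4% common) had Ccnd2 (18 and 4) and Ccnd3 (8 and 2), for D-type cyclins, toward heart and Sgk1, for a kinase (5 and 12), toward muscle among 5 genes, with a median of 0.65.

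Positions along long genes were compared after the values had been seen. In 246 genes of 100 kb or more with at least 10 clusters in each tissue and at least 5 of each in introns, the median intronic position in muscle minus that in heart had a median of −0.148% of the gene length, with 5th and 95th percentiles of −27.1% and 24.3%. In 166 genes (67.5%) it was within 10 percentage points. Dmd, Ttn and Rora belonged to these: their median intronic positions were 18.1%, 48.3% and 28.0% of the gene length in heart and 13.9%, 48.5% and 28.2% in muscle.

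In a pair of related genes most heart clusters lay before the first muscle cluster. Pde4d and Pde4b encode phosphodiesterases that break down cyclic AMP, and both have several alternative promoters. In Pde4d (chromosome 13 from 109240142 to 110743669, plus strand) heart clusters began 204 kb from the annotated start and muscle clusters at 992 kb, and 133 of 158 heart clusters (84.2%) lay before the first muscle cluster. The median intronic positions were 30.3% of the gene length in heart and 88.1% in muscle. Of the 25 heart clusters at or beyond 992 kb, 16 had a muscle counterpart. Pde4b had 37 clusters in heart and 14 in muscle. Heart clusters began at 175 kb and muscle clusters at 486 kb, so that 30 of the 37 (81.1%) lay before the first muscle cluster. In its 3' UTR all 4 heart clusters were common. Among 285 genes of 100 kb or more with at least 10 clusters in each tissue, these 2 were the ones with 50% or more of the heart clusters before the first muscle cluster, and 0 genes showed the reverse.

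Other long genes were bound over unlike stretches in part. In Rbfox1, 18 of 51 heart clusters lay before the first muscle cluster, which lay 264 kb from the annotated start. Of these, 14 lay upstream of the annotated gene, the farthest by 920 kb, although the authors assigned them to Rbfox1. Of the 30 intronic heart clusters 22 were common. In Kcnma1, 21 of 44 muscle clusters and the single heart cluster lay upstream of the annotated gene. Median intronic positions moved from 19.9% in heart to 86.3% in muscle in Cnot4, from 34.0% to 93.0% in Cux1 and from 35.7% to 92.3% in Vcl, for vinculin. They moved the other way in Mitf, for a transcription factor (72.4% to 26.4%), Psme4 (52.9% to 13.0%) and Dysf, for dysferlin (77.6% to 38.8%). These 6 genes had 7 to 35 intronic clusters per tissue.

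**Figure D5:**
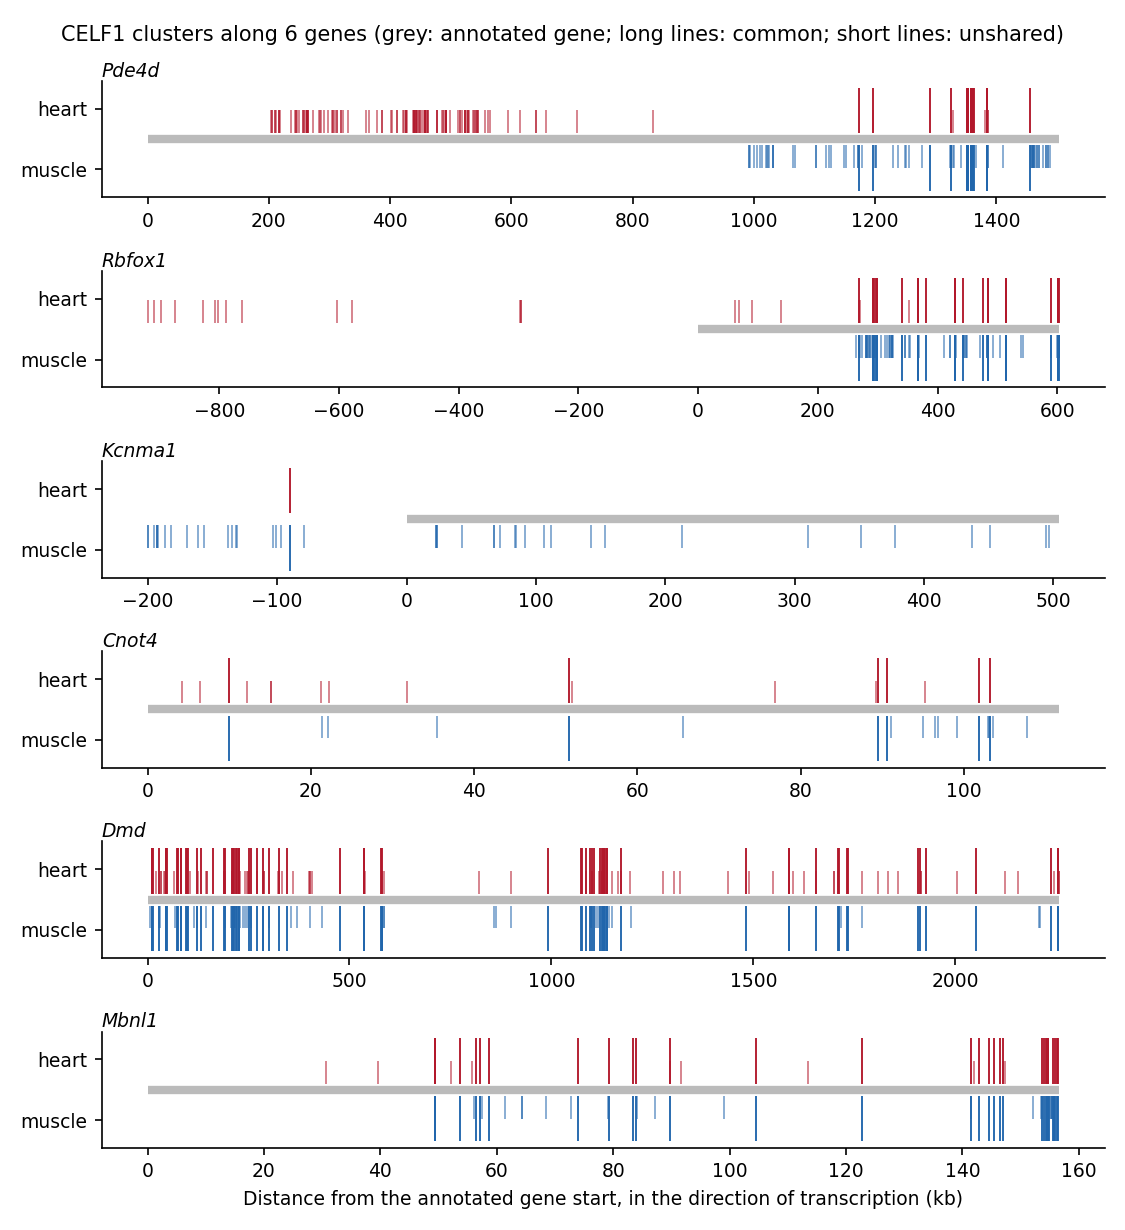
Each panel is a gene, with distance from its annotated start in the direction of transcription in kb on the x axis and the annotated gene as a grey bar. Lines above the bar are heart clusters and lines below it are muscle clusters, long where the clusters share a position and short where they do not. In Pde4d 133 of 158 heart clusters lie before the first muscle cluster at 992 kb, and in Dmd and Mbnl1 the clusters of both tissues run side by side.

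Sequence was not used to choose the genes. UGU was present in 99.1% of common and 97.9% of unshared heart clusters, and in 98.9% and 97.7% of muscle clusters. At least 5 UGUs were found in 50.7% of common and 42.9% of unshared heart clusters and in 48.7% and 33.8% of muscle clusters. Per 100 nt, common and unshared heart clusters held a mean of 7.75 and 9.33 UGUs and muscle clusters 7.82 and 7.86. Within introns the means were 11.9 and 11.2 in heart and 12.4 and 10.7 in muscle, and within 3' UTRs 5.74 and 5.08 in heart and 5.84 and 5.08 in muscle. Since common clusters were wider, the count was repeated for clusters of 45 to 60 nt. In introns 66.8% (64.4% to 69.1%) of common and 52.3% (51.1% to 53.5%) of unshared heart clusters then held at least 5, and 69.0% (66.8% to 71.2%) and 52.6% (50.6% to 54.7%) of muscle clusters. In 3' UTRs the shares were 15.3% and 10.6% in heart and 18.3% and 9.86% in muscle. The repeat UGUGUGUGUG was found in 8.09% of common and 12.8% of unshared heart clusters and in 7.54% and 6.31% of muscle clusters. Within introns it was found in 16.3% and 17.2% of heart and 15.2% and 10.9% of muscle clusters. Within 3' UTRs the shares were 3.35% and 2.96% in heart and 3.24% and 1.24% in muscle. The pooled heart difference was thus not seen at that size within either part. Median GC content was 44.4% in common and 46.9% in unshared heart clusters and 43.8% and 41.1% in muscle clusters.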

How the data were processed

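CLIP-seq cluster lists of heart and muscle, 1 library each, were compared. As the labels and the paper's methods describe, the authors collapsed duplicate reads with a random barcode, mapped them to mm9 with Bowtie and TopHat (versions not given in the sources used), and called clusters in each library against a Poisson background set by gene expression and pre-mRNA length. The deposited columns used here hold positions and the Entrez gene. A further deposited column had 1 value throughout and was not used, nor was the C2C12 myoblast list.

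Clusters were used as deposited. Gene models were GENCODE vM1 on NCBIM37, found for 4530 of the 4573 genes (99.1%). Symbols, found for 4568 genes, were RefSeq names (GRCm38.p6 table). A cluster was assigned by its midpoint to the first that held it of 3' UTR, coding exon, 5' UTR and intron, and otherwise to other. Clusters listed under a further gene (396 in heart, 96 in muscle) count in each. A cluster was common with at least 1 bp on the same strand as any cluster of the other tissue in the genes compared (within the same gene, 13063 in heart and 13114 in muscle). Unless stated, a cluster of a named gene was common within that gene. Scripts were checked on simulated intervals. Programs were samtools 1.23.1, pysam 0.24.0, pandas 2.3.3, scipy 1.17.1, numpy 2.4.6, matplotlib 3.10.9 and Python 3.11.15.

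The genes, the 21 gene lists and the rules for named genes were chosen with earlier results of these data known. Named were the genes with the most clusters and common positions, the extremes of the scaled ratio, of the common share and of the 3' UTR share, members of the lists, and the CELF and MBNL genes with Myadm, Cnih4 and Clcn1. Of 62 vesicle transport symbols 61 matched. Since each tissue has 1 library and the genes were chosen on the same clusters, no test was made. A few items are not reported here.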

Additional observations from a re-analysis of the deposited data

How the results depend on the processing

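Leaving out a replicate was not possible with 1 library per tissue, and a stricter threshold of the caller could not be set because the clusters carry no score, so width was used instead. No paired analysis was possible because each tissue has a single library and no result comes from a test. The number of genes was 3194 with at least 2 clusters in each tissue and 3409 with clusters of at least 50 nt. Common heart clusters were 30.2% when 50% of both clusters had to overlap, 35.9% with at least 10 bp, 38.6% with clusters of at least 50 nt and 35.3% with clusters up to 30 nt apart joined, and common muscle clusters were 46.1%, 55.0%, 59.3% and 55.1%. With clusters of at least 50 nt the common share of covered nt was 34.5% in heart and 53.4% in muscle. Genes without a common position were 6.67% with at least 2 clusters in each tissue and 17.7% when clusters within 50 nt counted as common. Genes past a ratio of 2 toward heart and toward muscle numbered 697 and 101 without scaling, 657 and 754 with no minimum number of clusters, 65 and 75 of 777 with 3' UTR clusters only, 393 and 284 by covered nt, and 188 and 129 of 861 with intronic clusters only, which was added after seeing the data. With each gene counted once, the 3' UTR share was 43.6% in heart and 52.5% in muscle. That setting used only the 1412 genes with at least 5 clusters in each tissue, so the genes changed along with the weighting. The share was 39.0% and 56.3% by covered nt, and 36.8% and 52.7% without the 50 genes with most clusters. UGU was present in 93.3% of common stretches and in 98.7% of common clusters of 30 to 80 nt, against 99.0% of all common clusters. The 3' UTR share was higher in muscle than in heart under the 3 alternatives run for it. The common share is higher in muscle by construction, since muscle has fewer clusters and the numbers of common clusters are nearly equal. Numbers of clusters depend on library depth, which the lists do not give.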
